A study of Mus musculus with 18 samples.

Results

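In mouse erythrocytes the contacts of the alpha-globin (Hba), beta-globin (Hbb) and Slc25a37 viewpoints were measured with 2 probe pools, called the promoter capture and the enhancer capture, in libraries that carry the same letters. The members were the viewpoint columns of these 3 loci in the erythrocyte samples of both captures, paired by the library letter in the labels (A, B and C, given here as libraries 1, 2 and 3). They were 6 of the 18 samples of the series and 18 of its 108 viewpoint columns. NG Capture-C joins DNA that lies close together in fixed nuclei after DpnII digestion, pulls out the ligation products of chosen restriction fragments (the viewpoints) with biotinylated oligonucleotides, and sequences what was joined to them.

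The erythrocytes came from spleens of C57BL/6 mice that had received phenylhydrazine, which destroys red cells and fills the spleen with erythroid precursors, in 3 doses 12 h apart and were taken on day 5. Spleens were dissociated and filtered with no sort stated, so the values are over all cells of the suspension, and contact in more cells cannot be told apart from more contact per cell. The 12 other samples were embryonic stem cells (ESC) and definitive endoderm (DE, derived from ESC with ActivinA and EGF and taken on day 5), 3 libraries for each cell type and capture. Both were of the 129/Sv//EV strain, so cell type and strain cannot be told apart in any comparison with erythrocytes. For both captures the labels name the alpha-globin pair (Hba-1 and Hba-2), the beta-globin pair (Hbb-b1 and Hbb-b2) and Slc25a37. They add Eomes, Foxa2 and Lhx1 for the promoter capture, and PSE_a, PSE_b and VPE for the enhancer capture.

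Hba-a1 and Hba-a2 encode adult alpha-globin, and Hbb-b1 and Hbb-b2 encode adult beta-globin, the protein chains of haemoglobin. Slc25a37 encodes mitoferrin-1, the carrier that brings iron into the mitochondria of red cell precursors for haem synthesis. The alpha-globin enhancers lie far upstream of the genes, in and beside introns of the housekeeping gene Nprl3, and the beta-globin enhancers form the locus control region upstream of the embryonic gene Hbb-y. In erythroid cells such elements are known to fold towards the active globin promoters, and they carry clustered sites for GATA1, for NF-E2 and for factors that bind CACCC boxes.

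The first result concerned the viewpoints themselves. Fragments around a viewpoint hold no reads in the deposited tables, and such blank runs marked the same fragments in both captures. On chromosome 11 (mm9) they covered chr11:32182317-32184781 around Hba-a1 with 8 fragments and chr11:32194990-32197598 around Hba-a2 with 9 fragments. On chromosome 7 they covered chr7:110961283-110963273 around Hbb-b2 with 6 fragments and chr7:110975292-110977138 around Hbb-b1 with 4. On chromosome 14 a single run of 7 fragments, chr14:69902161-69904393, covered the start of Slc25a37. Each run was blank in all 9 columns of the promoter capture and all 9 of the enhancer capture. The windows known for enhancers were not blank in either. In the body of Nprl3, 100 of 102 fragments held erythrocyte reads in each capture, in the 30 kb upstream of Hbb-y 65 of 69 did in the promoter capture and 64 of 69 in the enhancer capture, and in the 20 kb upstream of Slc25a37 38 of 38 did in each. At these loci the 2 captures therefore shared their promoter viewpoints. Contact seen from the enhancers was not measured, and the reciprocity of promoter and enhancer contacts could not be computed. What follows compares 2 captures of the same viewpoints in libraries of the same letter.

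The sequences matter here because each globin viewpoint is a pair of related genes. The 108 bases that end 1 base before the annotated start of Hba-a2, chr11:32196381-32196488 on the + strand, hold the CCAAT box, the CACCC box and the ATATAA motif of a globin promoter (in capitals, searched on the strand of the gene):
Hba-a2: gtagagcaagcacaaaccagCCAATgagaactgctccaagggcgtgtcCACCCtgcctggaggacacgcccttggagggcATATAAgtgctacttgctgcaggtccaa
The same 108 bases stand without a difference at chr11:32183564-32183671 in the Hba-a1 zone, where the annotation starts the transcript further upstream. The stretch was placed by its ATATAA motif and a CCAAT box shortly before it, so both were present by choice. All 3 motifs occurred together in the 108 bases before the start of 4 of 7631 genes on these 3 chromosomes (0.0524%), CCAAT in 8.81%, CACCC in 13.4% and ATATAA in 3.03%. Hba-a2 is itself among these 4 genes. Over the whole zones, Hba-a1 and Hba-a2 were identical at 86.7% of 2647 aligned positions, with an unbroken identical run of 1022 bases. Hbb-b1 and Hbb-b2 were identical at 79.1% of 2001 positions, with a run of 906 bases. They part from each other in 120 bases that end 140 bases before the ATATAA motif of each gene, at chr7:110976613-110976732 (3 bases before the annotated start of Hbb-b1) and chr7:110962607-110962726 (97 bases before that of Hbb-b2; both - strand, capitals marking bases that differ from the other gene or have no partner there, 60.8% identical over 125 aligned positions):
Hbb-b1: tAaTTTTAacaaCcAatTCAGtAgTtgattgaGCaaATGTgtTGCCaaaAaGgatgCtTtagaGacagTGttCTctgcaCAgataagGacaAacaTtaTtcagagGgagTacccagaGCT
Hbb-b2: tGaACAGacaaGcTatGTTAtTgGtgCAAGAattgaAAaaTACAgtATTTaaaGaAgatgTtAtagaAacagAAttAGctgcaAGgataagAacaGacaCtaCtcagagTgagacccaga

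Depth differed between loci, libraries and captures. The Hba columns held 86404, 26659 and 37416 reads in libraries 1, 2 and 3 of the promoter capture and 93440, 27580 and 33750 in the enhancer capture. The Slc25a37 columns held 24440, 3744 and 4751 reads against 25671, 3711 and 4174. At Hbb the enhancer capture was shallower, with 11478, 3505 and 3185 reads against 25752, 6730 and 9776. The Hbb depth ratio of enhancer to promoter capture was 0.326 to 0.521 in erythrocytes, 0.0974 to 0.133 in ESC and 0.0988 to 0.233 in DE, whereas at Hba and Slc25a37 in erythrocytes it was 0.879 to 1.08.

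The share of interactions in cis, on the chromosome of the viewpoint, set library 2 apart in both captures. At Hba it was 27.9%, 71.7% and 26.5% in libraries 1, 2 and 3 of the promoter capture, and 27.9%, 72.0% and 26.7% in the enhancer capture. At Hbb it was 26.5%, 71.1% and 22.1% against 27.6%, 69.8% and 21.6%, and at Slc25a37 29.6%, 66.2% and 26.6% against 29.6%, 64.8% and 27.1%. ESC and DE columns of these loci had means of 52.8% to 71.4%. The captures of a library differed in cis share by 0.18 points at Hba, -0.26 at Hbb and -0.28 at Slc25a37 on average (enhancer minus promoter, exact paired permutation test, two-sided, p = 0.25, 0.75 and 1; 3 pairs allow no p below 0.25). Library 3 stood apart in another way: within 20 kb of Slc25a37 it placed 49.2% and 49.1% of its cis interactions in the promoter and enhancer captures, against 25.8% to 27.9% in libraries 1 and 2. For this reason signals below are given per 100000 cis interactions of a column, and library by library.

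The captures shared few contacts on other chromosomes. Of the fragments contacted on other chromosomes, 0 to 0.992% were seen in both captures of a library. In library 1 the promoter capture shared more of them with its own letter than with another (at Hba 373 against at most 150). In libraries 2 and 3 it shared fewer than with the best other letter (at Hba 27 against 76 and 89 against 177). The same held at Hbb and Slc25a37. Libraries differed widely in the number of such fragments, at Hba 37588, 4602 and 17325 in the promoter capture. Over 5 kb bins of cis signal, the chi-square per degree of freedom between the 2 captures of 1 erythrocyte library was 1.06 to 7.28 (median 2.43, 9 pairs, where 1 is sampling noise), and between different libraries in 1 capture it was 1.52 to 15.3 (median 8.10, 18 pairs). The lowest values of the first kind were at Slc25a37 (1.06 to 1.38) and the highest at Hbb (2.56 to 7.28). In ESC and DE different libraries differed by 1.07 to 2.24 only, so the spread among the erythrocyte libraries was wider than that among the others. The 2 captures of 1 library differed by 1.20 to 2.07 in ESC and 1.07 to 6.12 in DE. In DE at Hbb they differed by 3.19 to 6.12, more than different libraries did (1.07 to 1.45). At Hba all ESC and DE pairs of both kinds lay at 1.85 to 2.27, so values near 2 were usual there.

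Beyond 20 kb both captures found the same places. The bins were ranked by their mean signal in the promoter capture, a rule set after the values were seen, so that ranks and levels in that capture are a description. At Hba the 5 bins of 5 kb with most signal all lay in Nprl3, and they held ranks 1 to 5 in the enhancer capture too. The first, chr11:32150001-32155000 at 29.8 kb, had signals of 2534, 4277 and 2621 in libraries 1, 2 and 3 of the promoter capture and 2390, 4320 and 2365 in the enhancer capture. Library 2 was highest in both, and libraries 1 and 3 lay close together in each. ESC had 1135 ± 65.9 (SD, n = 3) and DE 1016 ± 38.1 in the promoter capture, and 1104 ± 86.3 and 953 ± 71.4 in the enhancer capture. Per 100000 cis interactions no erythrocyte value overlapped them. The Hba cis share was 26.5% to 27.9% in erythrocyte libraries 1 and 3 and 65.2% to 73.0% in ESC. Here and at the other loci, signal levels were set against ESC and DE on the cis scale alone. Scaling to all interactions was not run for that comparison. The next bin, chr11:32145001-32150000, had 2243, 2897 and 1865 against 2332, 3263 and 2443. The erythrocyte mean of the 5 bins was 1.68 to 3.50 times that of ESC in the promoter capture and 1.56 to 4.05 times in the enhancer capture.

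At Hbb the leading bins lay between Hbb-y and the olfactory receptor gene Olfr66, in the region of the locus control region. Chr7:111015001-111020000, at 40.4 kb, had 3195, 5576 and 3190 in the promoter capture and 2681, 4376 and 3052 in the enhancer capture. It was the first bin in both captures, with library 2 highest in each. In the promoter capture ESC had 511 ± 191 and DE 455 ± 37.8, so the erythrocyte mean was 7.80 times that of ESC and 8.77 times that of DE. In the enhancer capture it was 4.31 times that of ESC (782 ± 455, from columns of only 521 to 973 reads) and 10.5 times that of DE. The second bin, chr7:111010001-111015000, had 2550, 3613 and 2774 against 2177, 3558 and 2907. The 5 leading bins of the promoter capture held ranks 1, 2, 4, 3 and 5 in the enhancer capture.

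At Slc25a37 the leading bins lay between D930020E02Rik and Entpd4, upstream of the gene. Only bins beyond 20 kb were ranked, and the window chosen for its enhancers ends 18.8 kb from the zone. No leading bin could therefore lie in that window. Chr14:69940001-69945000, at 38.1 kb, had 3162, 3755 and 3162 in the promoter capture and 2852, 4116 and 2915 in the enhancer capture, against 695 ± 38.6 and 844 ± 137 in ESC. The neighbouring bin chr14:69935001-69940000 had 3051, 3714 and 2530 against 2904, 4116 and 3269, and the 2 bins exchanged ranks between the captures. Both bins had erythrocyte signals above every ESC and DE value in both captures. Over the 15 leading bins of the 3 loci the fitted log2 difference between captures ran from -0.36 to 0.26, and adjusted p-values from 0.663 to 0.997 (limma, Benjamini-Hochberg).

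**Figure D1:**
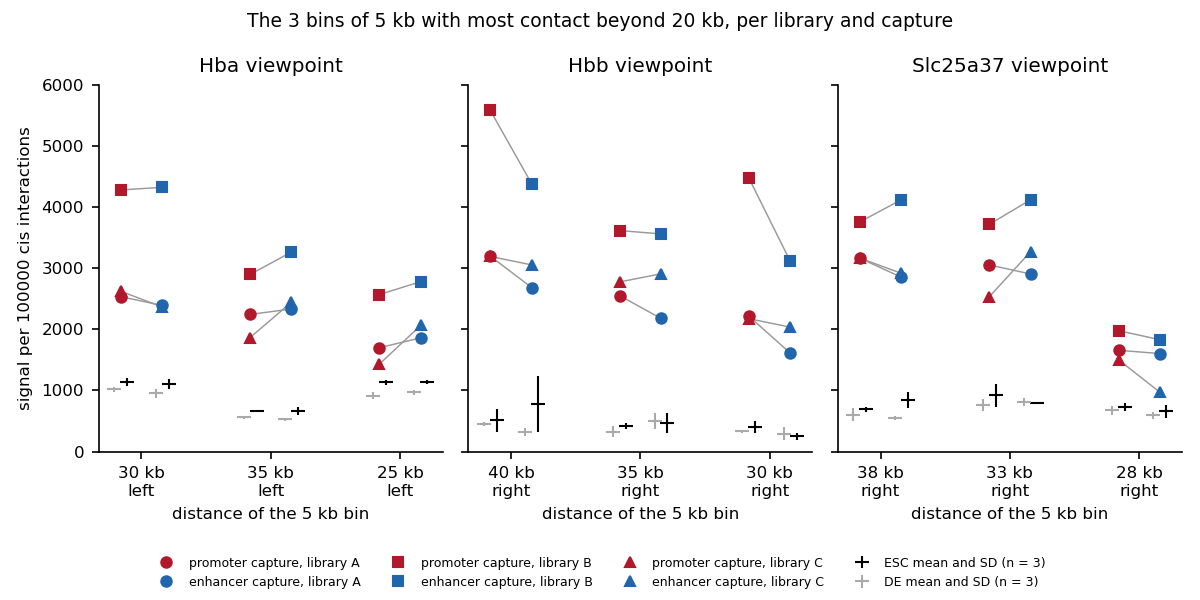
Signal per 100000 cis interactions (linear axis from 0) of the 3 bins of 5 kb with most contact beyond 20 kb at each locus; grey lines join the 2 captures of 1 erythrocyte library, and dashes with bars give the ESC and DE mean and SD of 3 libraries. Both captures of each library stand above the ESC and DE values in all bins shown, and library B (squares, library 2) is highest; the gap is smallest in the third Slc25a37 bin (972 in the enhancer capture of library 3).

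The next sequences are printed because they hold, within 200 bases centred on the NF-E2-type motif TGANTCA, also AGATAA (bound by GATA factors) and CACCC, all searched on both strands, shown in capitals, and chosen by this rule after the bins were known. The first is in an intron of Nprl3, chr11:32151006-32151205 (+ strand):
Hba: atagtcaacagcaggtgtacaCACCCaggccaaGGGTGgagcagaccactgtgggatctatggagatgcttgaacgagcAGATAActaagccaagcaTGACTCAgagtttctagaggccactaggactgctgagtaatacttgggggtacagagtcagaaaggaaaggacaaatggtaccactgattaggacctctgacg
The second lies 5951 bases from the start of Hbb-y, chr7:111007705-111007904 (+ strand):
Hbb: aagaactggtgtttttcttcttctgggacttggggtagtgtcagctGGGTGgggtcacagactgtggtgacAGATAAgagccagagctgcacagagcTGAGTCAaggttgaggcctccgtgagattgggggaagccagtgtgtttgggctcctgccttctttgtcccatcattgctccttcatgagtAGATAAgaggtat
In the 3 leading bins such triples stood at 1 of 5 TGANTCA matches at Hba, 1 of 7 at Hbb and 0 of 7 at Slc25a37. Over the whole chromosomes 3.40%, 3.10% and 2.98% of such matches had both other motifs within the 200 bases. The fragment with the centre of the Nprl3 stretch (chr11:32151062-32151881) had a signal of 436, 476 and 444 in libraries 1, 2 and 3 of the promoter capture and 329, 468 and 355 in the enhancer capture, against 120 ± 36.5 in ESC and 116 ± 10.4 in DE in the promoter capture. The fragment of the Hbb stretch (chr7:111007508-111007928) had 352, 1003 and 462 against 410, 368 and 727, on 82 and 27 reads, and the order of the captures was not the same in the 3 libraries. ESC had 87.5 ± 25.2 and DE 62.6 ± 7.55 there in the promoter capture.

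Over whole windows the captures lay close together. The body of Nprl3 had a signal per kb of 359 ± 73.3 (SD, n = 3) in the promoter capture and 366 ± 73.7 in the enhancer capture, a log2 difference of 0.03 ± 0.44 (SE, limma, adjusted p = 0.996). The 30 kb upstream of Hbb-y had 469 ± 160 and 437 ± 115 (log2 -0.08 ± 0.31, adjusted p = 0.929), and the 20 kb upstream of Slc25a37 671 ± 158 and 703 ± 168 (0.07 ± 0.28, adjusted p = 0.893). The limma standard errors draw on the variance of all bins and regions of a fit, so they are not the spread of each window alone. The same windows had 163 ± 7.14, 80.6 ± 20.3 and 423 ± 13.3 per kb in ESC in the promoter capture.

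Distance from the viewpoint was taken out by comparing both sides of it. At 20 to 50 kb, a span chosen after the profiles were seen, the Nprl3 side of Hba had 5.47, 7.63 and 7.81 times the signal per kb of the opposite side in libraries 1, 2 and 3 of the promoter capture, and 5.30, 8.49 and 7.24 times in the enhancer capture. In ESC the ratio was 1.24 ± 0.0473 and 1.20 ± 0.0401, and in DE 1.15 ± 0.0570 and 1.20 ± 0.0433. The locus control region side of Hbb had ratios of 6.69, 8.32 and 11.2 against 4.88, 5.54 and 9.77, the last on 85 and 9 reads, and ESC and DE had means of 0.902 to 1.18. The upstream side of Slc25a37 had ratios of 1.95, 2.35 and 2.29 against 1.89, 2.48 and 2.15, with 1.00 ± 0.181 and 1.06 ± 0.0489 in ESC and 1.27 ± 0.0806 and 1.28 ± 0.0669 in DE. The erythrocyte libraries lay above those of ESC and DE in all 6 groups, with no test since the span was chosen on these values. In the enhancer windows, set by annotation, the ratio was 5.79 ± 0.929 and 5.94 ± 1.03 for the Nprl3 body in the promoter and enhancer captures, against 1.10 and 1.08 in ESC, and 11.2 ± 4.06 and 8.40 ± 2.08 for the 30 kb upstream of Hbb-y, against 1.09 and 1.42 (exact permutation test, two-sided, p = 0.1 each, also against DE, the smallest that 3 against 3 allow). In the first 20 kb upstream of Slc25a37 this was not seen: the ratio was 0.693 ± 0.221 and 0.697 ± 0.173 in erythrocytes, 0.702 ± 0.0208 and 0.716 ± 0.0281 in ESC, and 0.796 ± 0.0590 and 0.821 ± 0.0403 in DE (exact permutation test, p = 0.3 to 1).

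**Figure D2:**
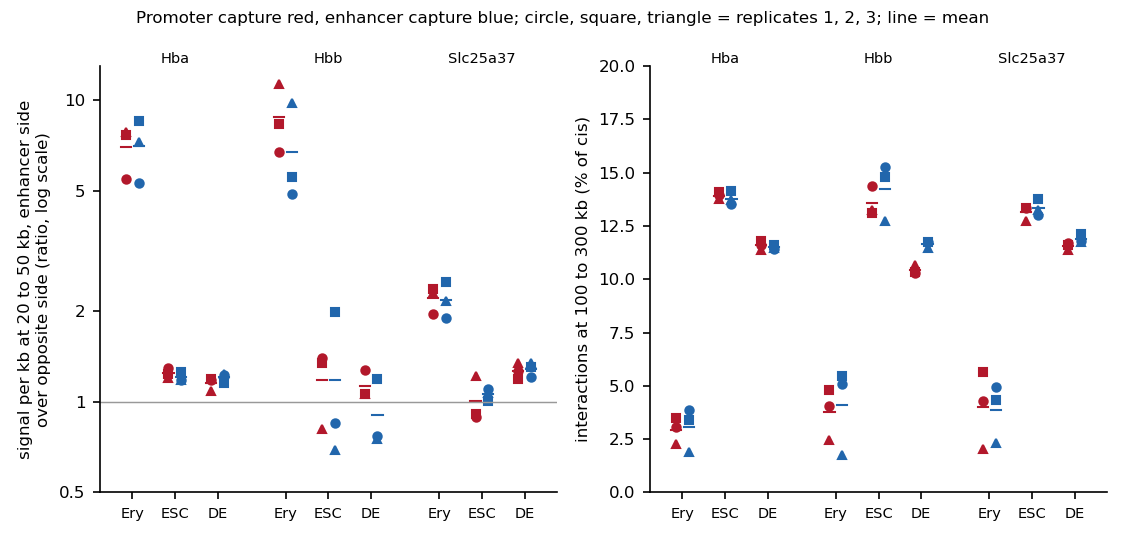
Left, ratio of the signal per kb at 20 to 50 kb on the enhancer side of the viewpoint to that on the opposite side (log scale, line at 1), and right, share of cis interactions at 100 to 300 kb (percent, from 0), for each library, cell type (Ery, erythrocytes) and capture with the mean as a line. Erythrocytes lie above ESC and DE in the first and below them in the second at all 3 loci, in both captures.

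Other globin genes and neighbours were taken from a list set by position. Hba-x, the embryonic alpha-like gene, had a promoter signal per kb of 795 ± 187 in the promoter capture and 751 ± 178 in the enhancer capture, and the theta-like genes Hbq1b and Hbq1a, next to the viewpoints, had 1561 ± 418 and 1494 ± 209, and 637 ± 222 and 629 ± 191. The promoter of Nprl3 had 690 ± 195 and 591 ± 170, against 231 ± 12.5 and 226 ± 26.3 in ESC. Farther out, Mpg, a DNA repair glycosylase gene, had 81.6 ± 14.6 and 81.7 ± 20.3, and Snrnp25, a spliceosome gene, 104 ± 53.9 and 98.9 ± 54.1. The Il9r promoter, 81.0 kb out on that side, had 70.3 and 39.5 (log2 -0.83 ± 0.44, limma, adjusted p = 0.845). Not all of these were higher than in ESC. In the promoter capture ESC had 833 ± 65.6 at Hba-x and 124 ± 10.1 at Il9r, above the erythrocyte means. ESC had lower means at Hbq1b (981 ± 61.0), Hbq1a (365 ± 9.10), Mpg (50.5 ± 6.03) and Snrnp25 (91.6 ± 18.8).

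In the beta-globin cluster the embryonic genes Hbb-bh1 and Hbb-y had promoter signals of 257 ± 102 and 263 ± 110 per kb in the promoter capture, and 191 ± 12.9 and 221 ± 28.8 in the enhancer capture. Hbb-bh2 had 178 ± 41.1 against 116 ± 1.39. Olfr66, beyond the locus control region, had 144 ± 63.5 against 240 ± 88.1, and Olfr67, on the other side of the cluster, 124 ± 29.6 against 98.7 ± 89.6. Next to Slc25a37, D930020E02Rik had 420 ± 127 against 531 ± 104, and Entpd4 79.4 ± 49.1 against 76.9 ± 66.7. In the promoter capture ESC had higher means at Hbb-bh2 (259 ± 76.9) and D930020E02Rik (550 ± 25.2). ESC had lower means at Hbb-bh1 (242 ± 11.4), Hbb-y (163 ± 33.3), Olfr66 (79.5 ± 11.3), Olfr67 (70.3 ± 42.9) and Entpd4 (72.8 ± 23.2). None of these regions was called as different between captures: 0 of the 13 regions tested at Hba, 0 of 19 at Hbb and 0 of 7 at Slc25a37 passed the threshold (limma, adjusted p at least 0.845, 0.663 and 0.727), and none had an unadjusted p under 0.05. Another 1 at Hba (Stk10), 19 at Hbb and 4 at Slc25a37 had under 10 reads over the 6 columns and were not tested.

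Across the chromosomes, 0 of 858 bins at Hba, 0 of 91 at Hbb and 0 of 100 at Slc25a37 differed between the captures (limma with the library as a block, adjusted p under 0.05, so 0% were called at each), and 41, 5 and 2 had an unadjusted p under 0.05. This test had little power: with 3 pairs, in simulated data with 4-fold changes it recovered 27 of 131 changed bins at Hba, 0 of 16 at Hbb and 0 of 18 at Slc25a37. On the reads recovered from the signals, edgeR called 0% of the bins at Hba and at Slc25a37 and 5 of 91 at Hbb (5.49%), and DESeq2 called 0, 0 and 0, with 5, 11 and 0 at an unadjusted p under 0.05 (edgeR 15, 14 and 1). In the simulation edgeR recovered 82 of 131 changed bins at Hba, 10 of 16 at Hbb and 8 of 18 at Slc25a37. It called 3, 7 and 0 bins that were not changed. There 16 of 80 Hbb bins were changed 4-fold at once, so it does not give the rate of false calls in the data. The 5 calls rest on edgeR alone, since limma and DESeq2 called 0 bins at Hbb.

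Of the 5 Hbb bins, 4 lay within or beside the viewpoint genes. The bin at Hbb-b2, chr7:110960001-110965000, had signals of 3107, 3195 and 10217 in the promoter capture and 4732, 5031 and 15552 in the enhancer capture (edgeR log2 0.62, adjusted p = 5.99e-05). It was higher in the enhancer capture of each library. The bin at Hbb-b1, chr7:110975001-110980000, was lower, with 3151, 2193 and 5825 against 1104, 1268 and 436 (edgeR log2 -1.53, adjusted p = 5.90e-10). Its neighbours chr7:110970001-110975000 and chr7:110980001-110985000 were also lower (edgeR log2 -0.50 and -0.82, adjusted p = 0.00126 and 0.0233). The remaining bin, chr7:111475001-111480000 at 500 kb, had 0, 62.7 and 0 against 94.6, 204 and 436 (edgeR adjusted p = 0.0485). With limma these 5 bins had an adjusted p of 0.663 each.

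The 2 globin genes of a pair were then set against each other by the reads within 2 kb outside of each zone. At Hbb the share lying beside Hbb-b2 rather than Hbb-b1 was 33.5%, 40.4% and 43.8% in libraries 1, 2 and 3 of the promoter capture and 61.2%, 63.3% and 87.2% in the enhancer capture. The 95% Wilson intervals of the 2 captures did not overlap in any library. The mean difference was 31.3 ± 10.7 points (SD, n = 3; exact permutation test, two-sided, p = 0.25 paired and 0.1 unpaired, the smallest possible values). In the enhancer capture of library 3, 109 reads lay beside Hbb-b2 and 16 beside Hbb-b1. The same direction stood in the other cells: in ESC 5.68% to 6.79% against 50% to 100%, the latter on 9 or 10 reads per library, and in DE 8.72% to 13.5% against 46.9% to 50%. At Hba the captures gave 57.0% to 60.8% and 59.1% to 61.5% beside Hba-a1, a difference of 0.94 ± 1.74 points (exact permutation test, p = 0.5), and in ESC and DE means were 63.0% to 63.7% in both. The enhancer capture was also the shallower one at Hbb in all 3 cell types, and the part of depth and of the probes in the shift was not tested.

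**Figure D3:**
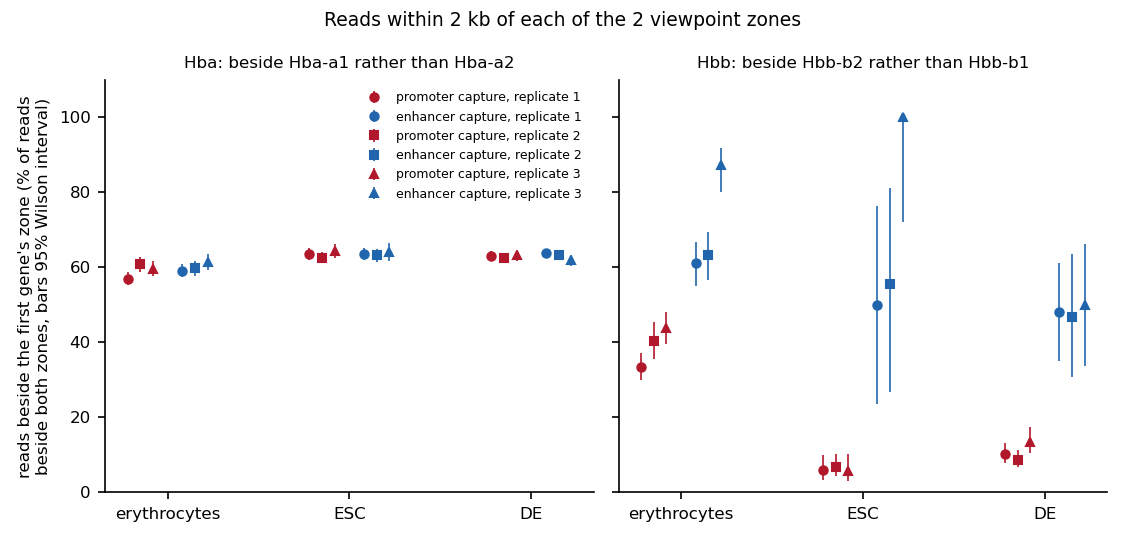
Share of reads beside Hba-a1 (left) and beside Hbb-b2 (right) among the reads within 2 kb of both zones of the locus, in percent, for each library, capture and cell type, with 95% Wilson intervals as bars. At Hba all values lie between 57.0% and 64.3%, and at Hbb the enhancer capture lies above the promoter capture in all 3 cell types.

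At 100 to 300 kb erythrocytes had a smaller share of their contacts than the other cells in both captures. There lay 2.93% ± 0.617 (SD, n = 3) of cis interactions at Hba in the promoter capture and 3.05% ± 1.04 in the enhancer capture, against 13.9% and 13.8% in ESC and 11.6% and 11.5% in DE. At Hbb the shares were 3.77% ± 1.21 and 4.09% ± 2.04 against 13.6% and 14.3% in ESC, and at Slc25a37 4.00% ± 1.82 and 3.85% ± 1.38 against 13.1% and 13.3%. Each erythrocyte group was below ESC and below DE with no overlap (exact permutation test, two-sided, p = 0.1 each, the smallest possible). Between captures the shares of a locus differed by -0.15 to 0.32 points on average (exact permutation test, p = 0.75 to 1). Library 3, with most contact near the viewpoint, was lowest in each of these 6 groups. Beyond 10 Mb the order turned at Hba: erythrocyte libraries 1, 2 and 3 had 33.6%, 24.0% and 24.3% of cis interactions in the promoter capture and 33.0%, 23.8% and 25.4% in the enhancer capture, above every ESC and DE library (exact permutation test, p = 0.1 each). At Hbb libraries 1 and 3 (29.1% to 35.3%) were above ESC and DE beyond 10 Mb and library 2 was not above DE, and at Slc25a37 the groups overlapped.

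Edges of the contact domains were searched from 20 to 300 kb as the largest step in distance-corrected signal between the 25 kb inside and the 25 kb outside. In the summed libraries, the Hba edges were 145 kb to the left and 40 kb to the right of the zones in the promoter capture (chr11:32037317-32237598) and 135 and 45 kb in the enhancer capture. The span holds Nprl3, Mpg, Rhbdf1, Snrnp25, Il9r and all alpha-like genes. The Slc25a37 edges were at 160 and 55 kb against 155 and 55 kb (chr14:69742161-69959393 in the promoter capture), a span that reaches past the start of Entpd4. At Hbb the left edge was at 275 kb in both, among olfactory receptor genes, and the right edge was at 50 kb in the promoter capture and at 135 kb in the enhancer capture (chr7:110686283-111027138 in the promoter capture).

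Single libraries did not place the edges firmly. Their edges spread over 100 to 190 kb on the left of Hba, 45 to 295 kb on its right, 20 to 275 and 50 to 235 kb at Hbb, and 45 to 155 and 45 to 250 kb at Slc25a37. The mean difference between captures was -60 to 36.7 kb (exact paired permutation test, p = 0.5 to 1). On the right of Hba the summed edge of the promoter capture, at 40 kb, lay outside the range of its 3 libraries (165, 215 and 255 kb). The right edge of Slc25a37 in the enhancer capture spread least, at 55, 55 and 60 kb. The summed edges also moved with the search: with windows of 15 kb they were at 125 and 65 kb on the right of Hba, at 110 kb on the left of Hbb in both captures, at 245 and 125 kb on its right, and at 50 and 240 kb on the right of Slc25a37. With the search run to 500 kb, the right edge of Hba moved to 365 kb in both captures, so its place at 40 to 45 kb holds only for the search to 300 kb. On the right of Hbb the captures came close under other settings. Their summed edges were at 130 and 125 kb with windows of 50 kb, and at 55 kb in both with no distance correction.

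**Figure D4:**
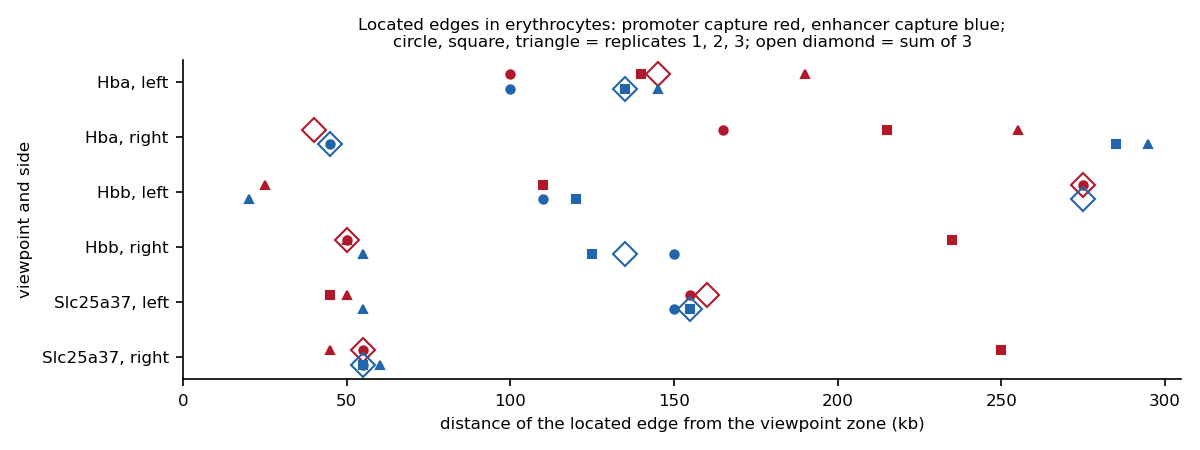
Distance in kb from the viewpoint zone at which the edge was located on each side of the 3 loci in erythrocytes, for each library and for the sum of 3 libraries (open diamonds), promoter capture in red and enhancer capture in blue. The diamonds of both captures lie within 10 kb of each other on 5 of 6 sides and apart on the right of Hbb, and single libraries scatter widely.

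An edge set in the promoter capture was measured in the enhancer capture, which had no part in setting it, though the libraries share their letters and the edges, set in erythrocytes, favour them, so that no test is given. The step of signal was largest on the right of Slc25a37, just past the start of Entpd4, with a log2 of 2.32 ± 0.177 (SD, n = 3; 1034 reads inside, 127 outside) against 0.53 ± 0.111 in ESC and 0.60 ± 0.196 in DE. The right of Hbb, short of Olfr66, had 1.59 ± 0.413 against -0.19 ± 0.909 and -0.18 ± 0.189, and the right of Hba had 0.96 ± 0.532 against 0.01 ± 0.0189 and 0.32 ± 0.0401. At these 3 edges the erythrocyte libraries lay above all those of ESC and DE. On the left sides they overlapped with ESC: 1.90 ± 1.30 against 0.84 ± 0.0709 at Hba, 1.38 ± 1.69 against 1.28 ± 1.24 at Hbb, on 16 reads inside and 3 outside, and 1.96 ± 0.750 against 1.59 ± 0.358 at Slc25a37. With DE they overlapped at Hba (0.75 ± 0.0580) and Hbb (0.39 ± 0.526), and at Slc25a37 they lay above it (1.46 to 2.82 against 1.20 to 1.33). That excess over DE did not hold with the edge set in the enhancer capture (155 kb) and measured in the promoter capture. The left of Slc25a37 then had 1.04 ± 0.428 in erythrocytes, 1.32 ± 0.287 in ESC and 1.29 ± 0.317 in DE. On the left of Hba and Hbb erythrocytes again overlapped with both, and on the 3 right sides they again lay above both.

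Of the cis interactions farther than 20 kb, the domain of the promoter capture held 25.8%, 35.9% and 30.3% at Hba in libraries 1, 2 and 3 of the promoter capture and 26.1%, 35.7% and 30.7% in the enhancer capture. The libraries kept their order and the captures differed by 0.15 ± 0.263 points (SD, n = 3; exact paired permutation test, p = 0.5). At Hbb the values were 21.3%, 35.9% and 24.8% against 20.2%, 32.3% and 22.4%, lower in the enhancer capture of each library by 2.34 points on average (SD 1.26, p = 0.25 in the exact test). At Slc25a37 they were 28.7%, 34.5% and 32.1% against 28.9%, 34.5% and 34.2%, a difference of 0.81 ± 1.14 points (exact test, p = 0.25). Library 2, with the high cis share, was highest in each of the 6 groups. Erythrocytes exceeded ESC by 6.50, 12.2 and 11.3 points and DE by 11.1, 15.2 and 15.6 points at Hba, Hbb and Slc25a37 in the promoter capture, and by 6.17 to 16.3 points in the enhancer capture. The domain was set in the erythrocyte libraries of the promoter capture, which favours erythrocytes, and the enhancer capture has libraries of the same letters, so these differences are a description with no test. The excess lay between 20 and 50 kb: with the first 50 kb left out the differences were between -5.59 and 0.78 points.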

How the data were processed

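NG Capture-C was measured in 18 samples; 6 erythrocyte samples and, for comparison, 12 ESC and DE samples were used. The authors digested with DpnII, captured with 120-base probes, and deposited, for each viewpoint, a signal per restriction fragment scaled to 100000 interactions per column (mm9; Trim Galore and Bowtie per the submitters' processing notes; versions not given in the sources used here). Whole reads were recovered from this deposited signal: values divided by the value of 1 read were whole within 0.05 for 100% of fragments. Erythrocyte columns held 3185 to 93440 reads; intervals cover counting error only, since the method counts reads without molecular identifiers. All columns were mapped to samples (0 left over).

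The members, lists and windows were chosen with earlier results of these data known. Signal was scaled to 100000 cis interactions and summed in 5 kb bins and named regions; bins with 10 or more reads over the 6 columns were tested as log2(signal + 10), enhancer minus promoter capture, with limma 3.58.1 (R 4.3.3) and the library as a block, Benjamini-Hochberg over bins and regions, threshold 0.05. edgeR 4.0.16 and DESeq2 1.42.0 on recovered reads were alternatives. Other comparisons used exact permutation tests. Named regions were the globin genes and Slc25a37, protein-coding starts within 300 kb (fragments within 1 kb of the start), the 3 enhancer windows, and the 3 fragments with most signal per kb beyond 20 kb. The library letter pairs the captures per the labels; deviations of same-lettered samples correlated at 0.27 to 0.71, above the highest correlation with another letter except in Hbb library 1 (0.39 against 0.66). Counts of fragments shared on other chromosomes were highest with the own letter in library 1 only. The series calls the libraries biological triplicates. Scripts were tested on simulated data. Annotation was GENCODE vM1.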

Additional observations from a re-analysis of the deposited data

How the results depend on the processing

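With no replicate block, as in the paired fit, 0 bins were called at Hba, Hbb and Slc25a37, which at this power shows no stability; at an unadjusted p under 0.05 the counts were 28, 2 and 3 against 41, 5 and 2 with the block. The Hbb count became 5 with edgeR and 1 without the read minimum. It was 0 for Hba and Slc25a37 under all alternatives run, including each library left out. TMM scaling moved the median log2 of the Hbb bins from -0.06 to -0.18, and gave -0.064 for the Nprl3 body and -0.0052 for the 20 kb upstream of Slc25a37. Leaving out 1 library at a time put the Nprl3 value between -0.0044 (without library 3) and 0.053 (without library 1). The 30 kb upstream of Hbb-y kept its sign, with -0.20 under TMM and -0.16 to -0.014 with 1 library left out (without library 3 and library 2). The differences of the 3 windows were within their limma standard errors, which draw on the variance of all bins and regions of a fit. Except where the choice leaves out contacts, the cause of the changes in this section was not tested.

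Edge positions depended on the method. The mean difference between captures (kb) was -80 for Hba left, 26.7 for Hba right, 3.33 for Hbb right and 61.7 for Slc25a37 right with 15 kb windows; 6.67 for Hbb right and -35 for Slc25a37 left with 50 kb windows; 16.7 for Hba left and 23.3 for Hbb right with no distance correction; and 26.7 for Hba right with a search to 500 kb, where its summed edges moved to 365 kb. With no distance correction the summed edges lay at 25 to 55 kb at all loci in both captures. The measured steps became 2.05 (Hba right), 2.25 (Hbb right) and 3.07 (Slc25a37 right) without the correction, 0.52 (Hbb right, 50 kb windows) and 1.10 (Slc25a37 right, 15 kb windows).

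The difference in domain share between captures at Hba was -0.27 with 10 kb left out, -0.46 with 50 kb left out and -0.12 with 2 Mb to each side as the total. At Hbb it was -0.70 with 50 kb left out, -6.15 with 2 Mb and -0.48 with the edges of the enhancer capture, and at Slc25a37 3.39 with 2 Mb. With 50 kb left out, erythrocytes minus ESC was -2.24 and -3.14 points at Hba (promoter and enhancer capture), -3.47 and -5.59 at Hbb and -3.91 and -2.86 at Slc25a37, and erythrocytes minus DE 0.78 and 0.46, -1.58 and -3.36, and -1.95 and -0.79. With 2 Mb as the total, it was 29.5 and 28.6, 38.3 and 29.5, and 30.2 and 33.2 against ESC, and 33.1 and 33.0, 40.7 and 33.7, and 33.9 and 37.1 against DE. With 10 kb left out it was 14.9 and 15.3 against ESC and 20.0 and 20.5 against DE at Slc25a37. Leaving out 1 library at a time put the difference in cis share between -0.96 and 0.30 at Hbb and between -0.67 and 0.25 at Slc25a37, positive only without library 2. Alternatives for reciprocal contact were not run, since the captures shared their viewpoints. Depth limits Hbb most, where the enhancer capture of library 3 held 688 cis reads.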

Other observations

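By the rule on single fragments, the 3 with most signal per kb beyond 20 kb in the promoter capture were 21 to 47 bases long in introns of Nprl3 at Hba (30 to 89 reads over 3 libraries), 16 to 39 bases long between Hbb-y and Olfr66 at Hbb (11 to 25 reads), and 45 to 64 bases long near Entpd4 at Slc25a37 (11 to 14 reads). The first at Hba, chr11:32149928-32149974, had 1060, 6564 and 3861 per kb in libraries 1, 2 and 3 of the promoter capture and 896, 4606 and 4961 in the enhancer capture, so single short fragments spread far more between libraries than the 5 kb bins around them.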
